A study of Mus musculus with 14 samples.

Results

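The nuclear genes for respiratory complex III, complex IV and the ATP synthase were examined in single retinal ganglion cells (RGCs), the neurons that carry visual signals from the retina to the brain. Members were all genes whose symbol starts with Uqcr, with Cox4 to Cox8 or with Atp5 in the annotation of the array. Only probe sets assigned to 1 gene were used, and where a gene had several, the one with the highest log2 signal averaged over cells stood for it. This gave 42 of 18193 genes: 8 of complex III, 17 of complex IV and 17 of the ATP synthase. No probe set shared between several genes matched the rule. Cox7b, the widely used isoform of subunit 7b, and the subunits encoded by mitochondrial DNA were not analysed here.

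The data were 14 tdTomato+ cells, named here cell 1 to cell 14, each hybridised to its own Affymetrix mouse genome array. All came from adult mice on a mixed background (129P2/OlaHsd, C57BL/6 and 129 SV in the labels), bred from Parvalbumin-cre and Ai9 Tomato parents and carrying 1 copy of each allele. Cre made from the parvalbumin locus switches on the red reporter permanently, so red marks any cell that has expressed Pvalb, amacrine cells included. Retinas were dissociated with papain, red cells were picked by hand, and all cells formed 1 group with no treatment and no named animal. There was thus nothing to test between groups, and every SD is a spread over single cells that may be technical. Libraries were kept only if PCR found Sncg and found no rhodopsin or glutamine synthetase.

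Detection of a gene in a cell required a MAS5 signal of 8 or more array medians. This threshold lay between 64.2 in cell 14 and 439.7 in cell 1. The number of genes detected was lowest in cell 5 (2540) and highest in cell 12 (6849). Of 13 ganglion cell markers measured, 8 were detected in every cell and each cell showed 9 to 13. Amacrine markers numbered 0 to 2 of 8 per cell. Rod markers numbered 2 to 4 of 13 in 12 cells and 10 in each of cells 3 and 6. Müller glia markers numbered 1 to 6 of 10 per cell, with 6 in cell 6 and 5 in cells 1 and 4. On average a cell showed 89.0% of ganglion cell, 8.93% of amacrine, 28.0% of rod and 28.6% of Müller glia markers. The mean share of all genes was 25.2%, with 20% in cell 3 and 30.6% in cell 6. Without cells 3 and 6 the mean shares of complex III, complex IV and the ATP synthase given below were 94.8%, 55.4% and 94.1%. The ratio of 3' to 5' Gapdh signal ran from 1.09 in cell 4 to 2.61 in cell 14.

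These complexes form the later part of oxidative phosphorylation. Complex III takes electrons from ubiquinol and hands them to cytochrome c, complex IV passes them on to oxygen, and both pump protons across the inner mitochondrial membrane. The ATP synthase lets the protons flow back through a ring of c subunits and uses that rotation to make ATP. RGCs fire long trains of action potentials along axons that lack myelin inside the eye, and they are known for their dependence on mitochondria. Several complex IV subunits exist as a widely used isoform and as isoforms of heart and muscle, lung or testis.

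The members were found far more widely than genes in general. In at least 7 cells 34 of the 42 members (81.0%) were detected, against 24.8% of all genes. In all 14 cells 16 members (38.1%) were detected, against 2.64% of all genes. Only Cox7c was found in no cell, whereas 41.8% of all genes were in none. The 7 members found in at most 3 cells, a range that held 62.2% of all genes, were 6 tissue-restricted isoforms of complex IV and Cox7c. With these isoforms left out, 34 of the remaining 35 members were in at least 7 cells. At a fixed signal of 1000 the number in every cell was 10, in place of 16. The background at that threshold was 1.67%. Brightness cannot be set against brightness between probe sets, so none of the values here ranks genes by abundance.

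**Figure D1:**
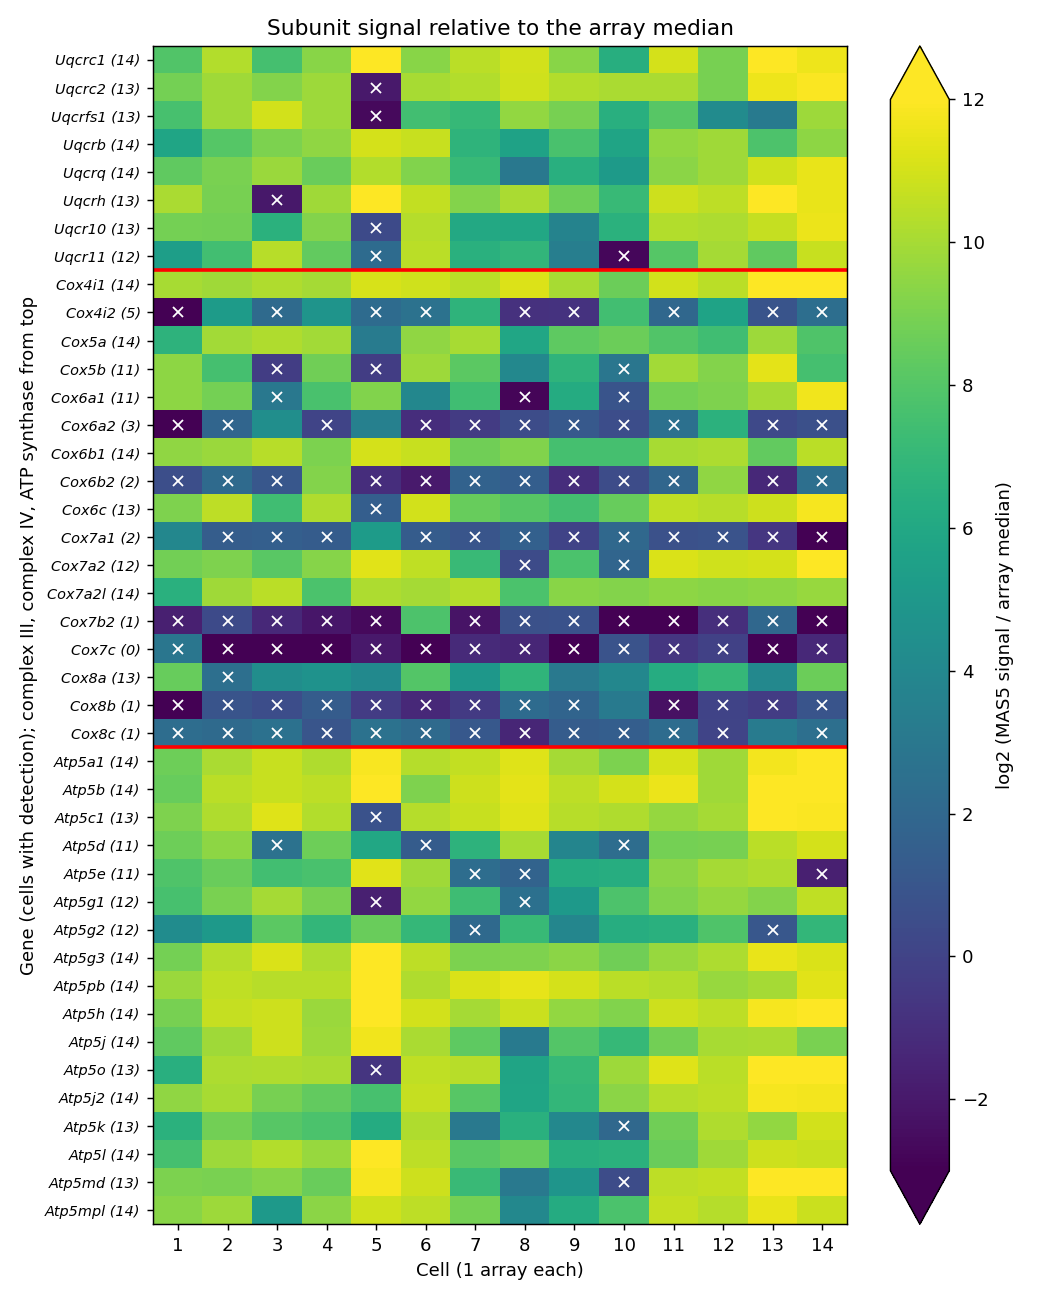
Each row is a gene, with the number of cells in which it was detected in brackets, and each column a cell. Colour gives log2 of the MAS5 signal over the array median, clipped at the ends of the scale, white crosses mark values below the detection threshold, and red lines part complex III, complex IV and the ATP synthase from top to bottom. Complex III and the ATP synthase have few crosses, most of them in cells 5 and 10, while the rows of Cox7c and the tissue-restricted isoforms are mostly crossed.

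All 8 complex III genes were detected in at least 12 cells, whereas only 14.2% of all genes were in at least 10. A cell showed 25.2% of all genes on average. Of the complex III genes a cell showed 94.6% ± 13.6 (mean ± SD, n = 14), or 98.1% ± 4.69 without cell 5 (n = 13), and 11 cells showed all 8. The core proteins carry the bulk of the complex on its matrix side. Uqcrc1 was detected in every cell, with a lowest signal of 2856, a median of 16150 and a highest of 83159. Uqcrc2 was detected in 13 cells, with a lowest signal of 2.04 in cell 5, a median of 17644 and a highest of 41929. Its signals left a wide gap, since the lowest detected value was 7845. The Rieske iron-sulfur protein gene Uqcrfs1, which carries electrons inside the complex, was in 13 cells, at 1.33 in cell 5, with a median of 5542 and a highest signal of 30640. It came close to the threshold in cell 13, with 121.2 against 108.3.

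Small subunits of complex III showed the same pattern of a high signal in most cells and a loss in 1 or 2 of them. Uqcrh, the hinge protein that lies beside cytochrome c1, read 3.76 in cell 3 and at least 5011 in the other 13 cells. Uqcr10 read 10.7 in cell 5 and 272 to 25183 in the other 13. Uqcr11 was missed in cells 5 and 10, at 38.9 and 5.39, and otherwise ran from 226 to 20571. Each of these genes was thus at background in at most 2 cells. Uqcrb and Uqcrq were detected in all 14, with lowest signals of 723 and 117.2, both in cell 8, and medians of 5012 and 8923. The value of Uqcrq in cell 8 lay just above the threshold there, 114.9. The other probe set of Uqcrb was in 12 cells and read 60.0 in cell 13 and 50.3 in cell 14, without a call.

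Of the 17 complex IV genes, 9 were detected in at least 7 cells (52.9%, against 24.8% of all genes). A cell showed 55.0% ± 7.51 of the 17, against 25.2% of all genes. With the 7 tissue-restricted isoforms left out, the share was 82.9% ± 10.7 of 10 genes, from 60.0% in cell 10 to 90.0% in 9 cells. Among the subunits with a single gene, Cox5a, which lies on the matrix side, was in all 14 cells (lowest 77.4 in cell 5, median 8296, highest 17864). The call in cell 5 was narrow, with a threshold of 65.3, and the other probe sets of Cox5a read 1.97 and 19.4 there, without a call. Cox6c was in 13 cells (22.4 in cell 5, median 17375, highest 30002). Cox5b, which binds zinc, was in 11 cells, with a median of 3644 and a highest signal of 37774.5, and was missed in cells 3, 5 and 10. Values of Cox5b overlapped between cells with and without detection, since it read 227.6 in cell 8 with a call and 270.4 in cell 10 without one. Cox7c read 413.8 in cell 1, where the threshold was 439.7, and at most 65.1 elsewhere. Its other probe set reached 118.4 and was in no cell either. Absence of Cox7c is not shown by this.

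The widely used isoforms of complex IV were found in most cells and their tissue-restricted counterparts in few. The median was 13 cells for the 5 widely used isoforms measured and 2 for the 7 tissue-restricted ones. Over all genes the median was 1 cell, so the tissue-restricted isoforms lay near genes in general. Cox4i1, the general isoform of subunit 4, was detected in all 14 cells with a lowest signal of 10417.5, a median of 22255 and a highest of 94522. Cox4i2, the isoform known from lung and from low oxygen, was found in 5 cells. It read 6301.5 in cell 10, 1657 in cell 7, 842 in cell 12, 550 in cell 2 and 286 in cell 4, and at most 89.4 in the other 9. Both isoforms were thus seen together in 5 cells, and Cox4i2 was never seen alone.

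Subunit 6b gave the clearest split between isoforms. Cox6b1 was detected in every cell (lowest 4064, median 11845, highest 39483). Cox6b2, the testis isoform, read 6208 in cell 4 and 12066 in cell 12, and at most 82.5 in the remaining 12. Cells 4 and 12 were also those with the most genes detected, 6277 and 6849, and the part of depth in this was not tested.

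Subunit 6a was less even. Cox6a1, the liver-type isoform, was in 11 cells (median 3658, highest 37750), and it read 120.5, 2.11 and 67.3 in cells 3, 8 and 10. Cox6a2, the heart and muscle isoform, was found in cells 3, 5 and 12 at 320, 95.3 and 1647. Neither was detected in cells 8 and 10, and cell 3 showed Cox6a2 without Cox6a1. Calls in cell 3 were not firm, since Cox6a1 missed a threshold of 121.8 by little. The second probe set of Cox6a1 was in 9 cells. It read 51.7 in cell 6 and 100.2 in cell 13 without a call, where the chosen one read 216.4 and 13522. The second probe set of Cox6a2 was detected in cell 12 alone, at 251.6, and read 59.4 in cell 3 and 57.2 in cell 5.

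For subunit 7a, the liver-type Cox7a2 was in 12 cells, with a median of 14473 and a highest signal of 53885. It read 19.2 in cell 8 and 134.9 in cell 10, where Cox6a1 was missed too, and 4337 in cell 3, the third cell without Cox6a1. Cox7a1, the heart and muscle isoform, was found in cell 1 at 848 and in cell 5 at 304, and was at most 151.5 elsewhere. The related Cox7a2l, a factor that helps complexes III and IV assemble into supercomplexes, was in all 14 cells (lowest 2267, median 10352, highest 21972). Cox7b2, a testis isoform, read 3160.5 in cell 6 and at most 53.9 in every other cell. Cell 6 is 1 of the 2 cells with 10 of 13 rod markers, and the other, cell 3, read 6.26. Cell 6 also had the most Müller glia markers, 6 of 10. The part of such transcripts from other cells was not tested.

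Cox8a, the widely used isoform of subunit 8, was in 13 cells, but only 6 of them reached a signal of 1000. Its lowest signal was 82.4 in cell 2, its median 514 and its highest 19858 in cell 1. Cox8b of heart and muscle read 338 in cell 10 and at most 76.4 elsewhere. Cox8c of testis was called in cell 13 at 129.8, below the 281.4 it read without a call in cell 1. At a fixed signal of 1000, Cox4i2 and Cox6b2 were in 2 cells each, Cox6a2 and Cox7b2 in 1, and Cox7a1, Cox8b and Cox8c in none.

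**Figure D2:**
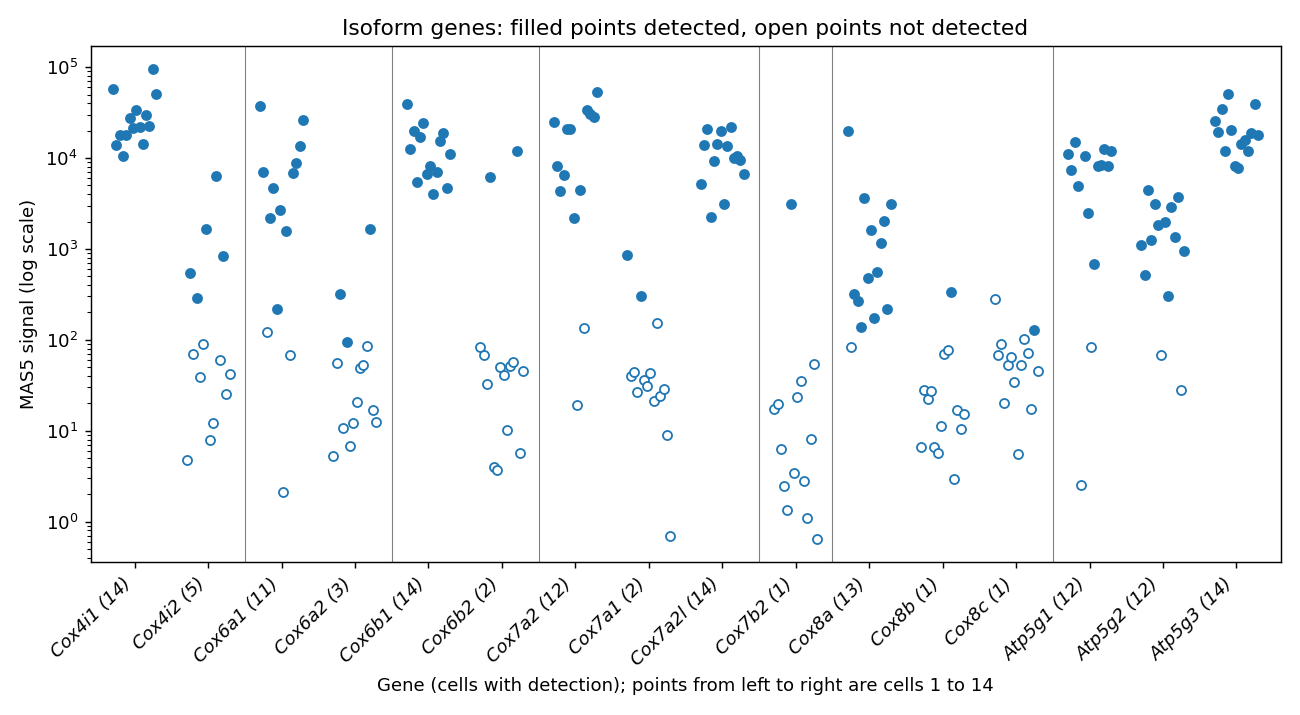
MAS5 signal (log scale) of isoform genes of complex IV and of the subunit c genes of the ATP synthase. Within each gene the points are cells 1 to 14 from left to right, filled where detected and open where not, with the number of cells in brackets. Cox4i1, Cox6b1, Cox7a2l and Atp5g3 are filled in all 14 cells, and Cox6b2 has 2 points at 6208 and 12066 far above the rest.

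Each of the 17 ATP synthase genes was found in 11 cells or more, whereas 14.2% of all genes were in at least 10. In all 14 cells 9 were found (52.9%, against 2.64% of all genes). A cell showed 94.1% ± 6.53 of the 17 (mean ± SD, n = 14), against 25.2% of all genes, and 6 cells showed all 17. Both genes of the catalytic head were in every cell. Atp5a1, the alpha subunit, had the smallest SD of log2 signal of any member, 0.54, with signals of 12251 to 45913 around a median of 23920. Atp5b, the beta subunit that makes the ATP, ran from 7856 to 93733 with a median of 29776.

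The central stalk turns inside that head and had no gene in all 14 cells. Atp5c1, the gamma subunit, read 14.0 in cell 5 and 11768 to 69417 in the other 13. Atp5d, the delta subunit, was in 11 cells, with a median of 5545 and a highest signal of 22951. It read 95.3, 35.9 and 185.6 in cells 3, 6 and 10. Its other probe set was in 12 cells and read 190.1 in cell 3, above the threshold of 121.8 there. Atp5e, the epsilon subunit, was in 11 cells, with a median of 4350 and a highest signal of 20674. It read 79.5, 48.7 and 2.53 in cells 7, 8 and 14. The gaps in Atp5d and Atp5e fell in different cells.

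Subunit c, which forms the rotating ring, is made from several genes that give the same mature protein. Atp5g3 was detected in all 14 cells, with a lowest signal of 7869, a median of 18344 and a highest of 51239. Atp5g1 was in 12 cells (median 8198, highest 15116) and read 2.51 in cell 5 and 82.8 in cell 8. Atp5g2 was also in 12 (median 1313, highest 4504) and read 68.9 in cell 7 and 28.1 in cell 13. All 3 genes were detected in 10 cells, and each of the other 4 had 2 of them. Cells that lacked 1 subunit c gene therefore always showed Atp5g3 and 1 more.

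The peripheral stalk, which holds the head still, was nearly complete in every cell. Atp5pb and Atp5h were in all 14 cells with SDs of log2 signal of 0.71 and 0.62, and lowest signals of 13521 and 9073. Atp5j, coupling factor 6, was in all 14 too, but fell between a highest signal of 28745 and 131 in cell 8, with a median of 11479.5. Atp5o, which confers sensitivity to oligomycin, read 5.12 in cell 5 and 782 to 65132.5 in the others. Its second probe set read 3.42 in cell 5.

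Among the small membrane subunits, Atp5j2, Atp5l and Atp5mpl were detected in every cell, with lowest signals of 804, 1786 and 234. Their medians were 17020, 11764.5 and 13790.5. For Atp5j2 this holds for the chosen probe set. Another was in 12 cells and read 6.67 in cell 5 and 44.5 in cell 8, without a call. Atp5md, which helps synthase dimers form, was in 13 cells with a median of 15593 and read 50.4 in cell 10. Atp5k was in 13 cells with a median of 4676, but its lowest call, 130.5 in cell 7, lay below the 150.6 of cell 10, where it was not detected. Array medians, and so thresholds, differ between those cells.

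Losses of members were concentrated in a few cells. The share of all 42 members lay between 64.3% in cell 5 and 88.1% in cell 12, and the share of all genes in cells 1 to 14, in that order, was 26.3%, 28.3%, 20%, 34.5%, 14%, 30.6%, 32.4%, 22.4%, 28.9%, 19.6%, 23.9%, 37.6%, 14.9% and 19.9%. The members thus lay above the genes as a whole in every cell. With tissue-restricted isoforms left out, 34 of 35 members were detected in cells 1, 4, 9, 11 and 12, where only Cox7c was missing. The number was 25 in cell 5, 27 in cell 10, 30 in cells 3 and 8 and 32 or 33 in the rest. Cell 5 also had the lowest share of all genes. Cell 13 had nearly as few genes but 33 of the 35 members, so both counts did not move together throughout. Across cells the share of these 35 members had r = 0.62 with the share of all genes (Pearson, n = 14 cells, each pair of values from 1 array).

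The complexes were not lost alike in cell 5. It showed 14 of 17 ATP synthase genes and 7 of 10 complex IV genes without the tissue-restricted isoforms. It showed 4 of 8 complex III genes and 15 of 34 genes of complex I, the first proton pump of the chain. Elsewhere complex I ran from 27 to 32 of 34 and complex III from 7 to 8 of 8. Some calls in cell 5 rest on the probe set chosen. Atp5j2 read 1655 by the chosen probe set and 6.67 by another, Cox8a 139.6 and 25.6, and Uqcrh 36267 and 5.04. Cox5a read 77.4 by the chosen one and 1.97 and 19.4 by the others. None of these other readings was a call. Levels in cell 5 differed between complexes too. Over the 17 ATP synthase genes the median log2 signal in cell 5 was 14.34, inside the range of the other cells, 10.93 to 15.24. Over the 9 complex IV genes found in at least 10 cells it was 12.19, also inside the range of the others, 10.66 to 14.87. Over the 8 complex III genes it was 9.29, below all others (11.04 to 14.57). For the 31 complex I genes found in at least 10 cells it was 5.53, against 10.85 to 14.31. Cell 5 was also lowest for all 2581 genes in at least 10 cells, at 6.52 against 11.19 to 12.20. For the 35 cytosolic ribosomal protein genes found in at least 10 cells it stood at 13.71, inside the range of the others, 12.65 to 14.47. Whether the complexes differ in this beyond 1 cell was not tested.

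Cells 7, 8 and 9 had the lowest median log2 signals of the ATP synthase, 12.26, 10.93 and 11.30, while the other 11 cells lay between 13.01 and 15.24. Other complexes were also low in some of them. In cells 7, 8 and 9 the median was 12.48, 10.66 and 11.99 for complex IV, 11.04, 12.07 and 12.59 for complex III and 12.33, 10.85 and 12.52 for complex I. Cell 8 was the lowest of all cells for complex IV and the ATP synthase. The same 3 cells stood at 11.91, 11.65 and 11.89 for all genes found in at least 10 cells, within the range of the rest. Their Gapdh 3' to 5' ratios of 1.22, 1.16 and 1.14 were likewise inside the range of the other cells. For the cytosolic ribosomal protein genes found in at least 10 cells, the medians in cells 7, 8 and 9 were 12.65, 13.28 and 13.10. Cell 7 was the lowest of all cells for these genes. Whether the low medians are particular to the respiratory complexes was not tested. Members differed there: Atp5a1 and Atp5b in cell 8 read 35435 and 37719, whereas Atp5j, Atp5md and Atp5e read 131, 121.1 and 48.7.

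**Figure D3:**
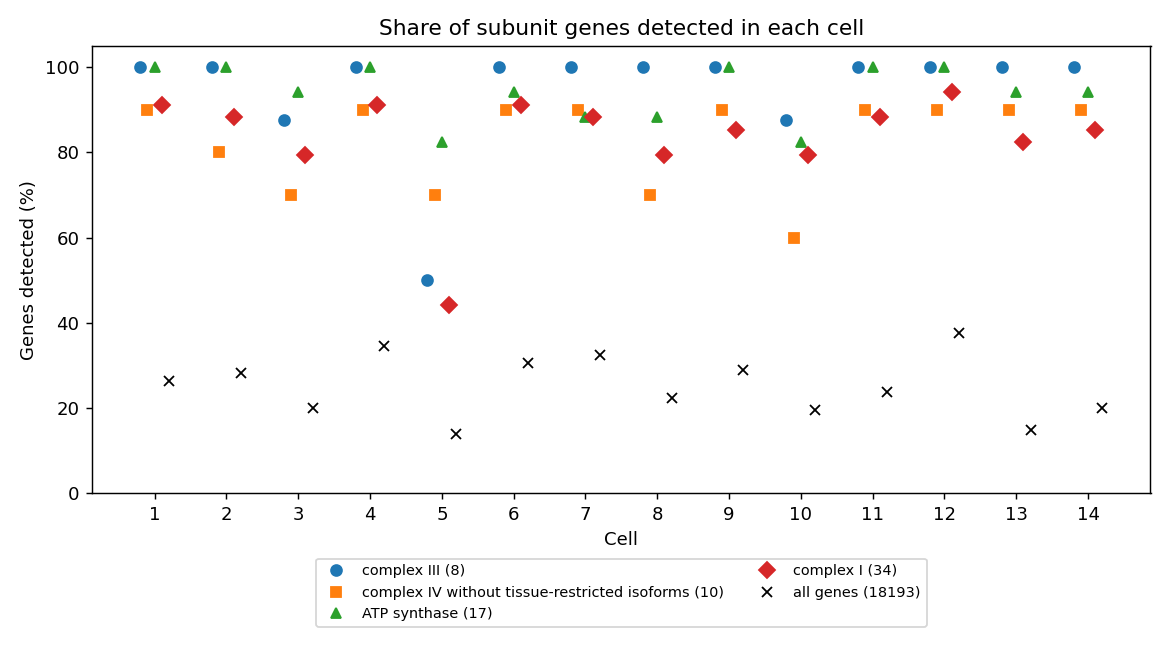
Percent of genes detected in each of the 14 cells (horizontal axis) for complex III, complex IV without tissue-restricted isoforms, the ATP synthase, complex I and all genes, with the number of genes in brackets. In cell 5 complex III lies at 4 of 8 genes and complex I at 44.1%, while the ATP synthase lies at 82.4%. All genes run from 14% to 37.6%.

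Signals of some members rose and fell together from cell to cell, across complexes as much as within them. Among the 34 members found in at least 10 cells, 44 of 561 pairs (7.84%) had a Pearson r of at least 0.7 on log2(signal + 32), against 2.66% of pairs among all 2581 such genes. The median r was 0.17 for the members, 0.25 for the 31 complex I genes in at least 10 cells and 0.04 for all. Of the 44 pairs 14 lay within a complex (31.8%), and 35.7% of all member pairs did. All these r are descriptions over 14 cells that share array scaling and amplification.

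Without cell 5, 28 of the 44 pairs were still at 0.7 or above. Uqcrc2 and Atp5c1 had r = 0.98 with all cells and 0.71 without cell 5. For Uqcrc2 and Cox6c, r fell from 0.84 to 0.10. Cox7a2 had r = 0.93 with Atp5md and 0.92 with Uqcrq. Without cells 8 and 10, where Cox7a2 was lowest, the values were 0.85 and 0.80. Under this omission 34 of the 44 pairs were still at 0.7 or above. For Atp5j and Uqcrq, r fell from 0.82 to 0.43, and for Cox6a1 and Cox7a2 from 0.81 to 0.56. Cox6c and Uqcr10 stayed at 0.93 under both omissions. An r of -0.5 or lower was found in 14 member pairs (2.50%), against 6.08% of pairs among all such genes. The lowest were those of Atp5pb with Uqcr11 and with Atp5k, -0.74 each. Members of a complex thus did not share 1 pattern over these cells.

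**Figure D4:**
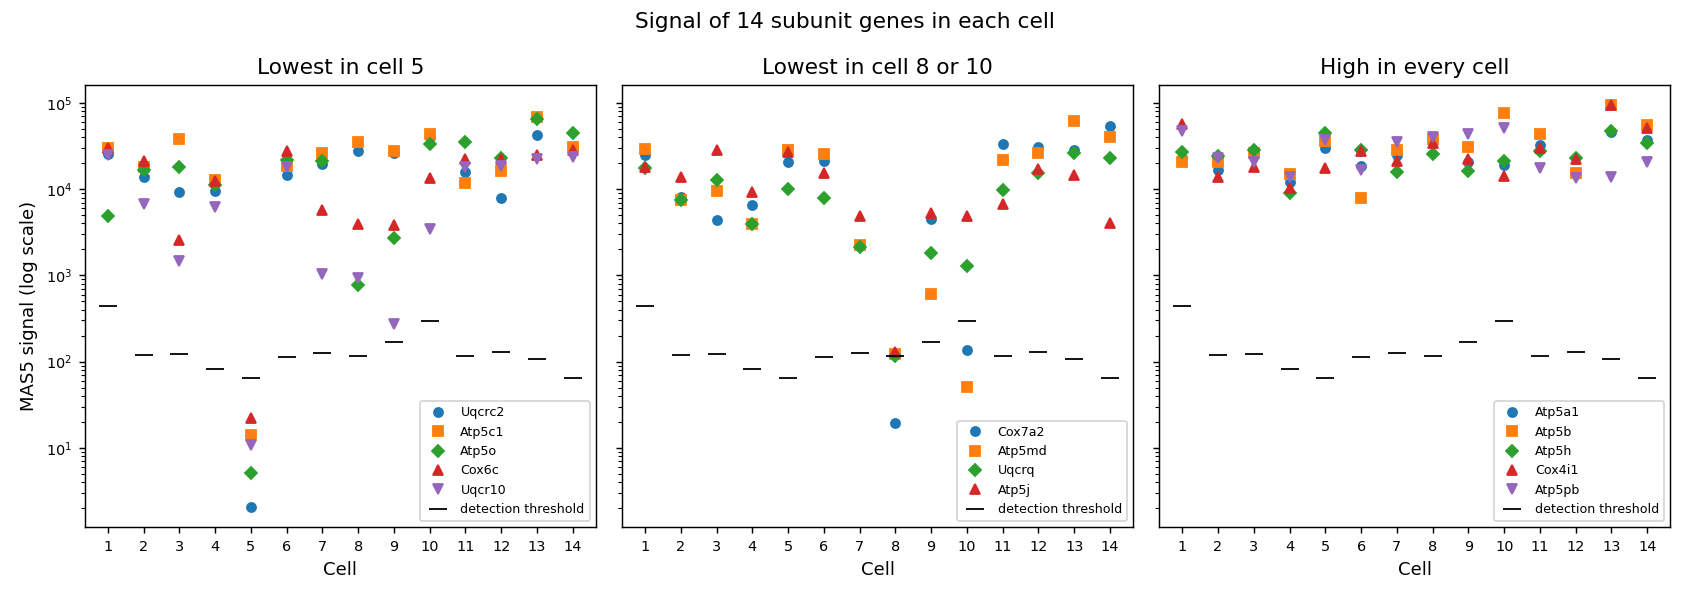
MAS5 signal (log scale) of 14 members in each cell, with the detection threshold of each array as black dashes. Uqcrc2, Atp5c1, Atp5o, Cox6c and Uqcr10 (left) are lowest in cell 5, Cox7a2, Atp5md, Uqcrq and Atp5j (middle) are lowest in cell 8 or cell 10, and Atp5a1, Atp5b, Atp5h, Cox4i1 and Atp5pb (right) are at 7856 or above in every cell.

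Genes that work beside these complexes were counted from lists. The shares in at least 7 cells and in all 14 are to be read against 24.8% and 2.64% of all genes. Of 9 complex III partners and assembly factors, 6 were in at least 7 cells (66.7%). Cytochrome c (Cycs), the carrier between complexes III and IV, was in 13 cells with a median signal of 17855, and its testis form Cyct in 1, at 83.4. Cyc1, the cytochrome c1 of complex III, was in 12 cells with a median of 4981. Of 23 complex IV assembly factors and partners measured, 13 were in at least 7 cells (56.5%), with Coa3 and Higd1a in all 14 and Cox15, which makes heme a, in none. Ndufa4, now counted as a complex IV subunit, was in 10 cells and Higd2a in 12.

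Of 7 genes for assembly and inhibition of the synthase and for exchange, 5 were in at least 7 cells (71.4%, against 24.8% of all genes). In all 14 cells 4 were found (57.1%, against 2.64%). Atpif1, the inhibitor of ATP hydrolysis, was in all 14 cells with signals of 7450 to 133797. The phosphate carrier Slc25a3 and the ADP/ATP carriers Slc25a4 and Slc25a5 were also in all 14, with lowest signals of 6365, 17317 and 8618. Atpaf2, an assembly factor for the head, was in none. Of 4 complex II genes, Sdha, Sdhb and Sdhc were in 10 to 13 cells, and Sdhd in 1 (these names were added after the values were seen). For complex I, 31 of 34 genes were in at least 7 cells (91.2%, against 24.8% of all genes) and 7 in all 14 (20.6%, against 2.64%).

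A cell showed 26.0% of the 11 regulators of mitochondrial genes on average, close to its mean share of all genes, 25.2%. In at least 7 cells 2 of 11 were detected (18.2%, against 24.8% of all genes), Esrra and Yy1 (named after the values were seen). Few regulators went wholly undetected, however. Tfb1m was the only 1 of the 11 missed throughout, a fate shared by 41.8% of all genes. Regulators had a median of 3 cells, against 1 over all genes. Nrf1, named because of the promoter motif given next, was in 4 cells with a highest signal of 1256. The protein NRF1 is a known activator of respiratory genes and binds GC-rich sites, so promoters were searched on both strands for GCGCA, then any base N, then GCGC, from 250 bases before to 50 after each start (RefSeq, GRCm38.p6). Of the 42 members 32 had a promoter in the table. The motif was in 8 of them (25.0%), against 5.19% of all 27025 genes with a promoter. Those 27025 were not limited to the 18193 genes of the array, and any matching promoter of a gene counted. The motif was in none of the 4 tissue-restricted isoforms with a promoter and in 8 of the other 28. With so few promoters of restricted isoforms, this cannot show a difference between them and the other members. A match is only a match of letters, and no match says only that these letters are not in this window.

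The stretches in which the motif and 15 bases on either side lie wholly upstream of the start are printed 5′ to 3′ on the strand of the gene, all on the minus strand, to show where the matches lie and what flanks them. Capitals mark the motif, whose likeness was set by the search. They lie at chr15:102671065-102671104 for Atp5g2, chr11:115420036-115420075 for Atp5h, chr5:108434425-108434464 for Atp5k, and chr5:115349096-115349135 and chr5:115349051-115349090 for Cox6a1.
Atp5g2: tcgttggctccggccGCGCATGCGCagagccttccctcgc
Atp5h: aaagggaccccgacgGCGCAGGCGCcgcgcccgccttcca
Atp5k: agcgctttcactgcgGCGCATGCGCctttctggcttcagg
Cox6a1, first: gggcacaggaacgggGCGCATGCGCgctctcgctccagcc
Cox6a1, second: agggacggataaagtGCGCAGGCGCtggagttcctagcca
The motif began 42 bases upstream of the start in Atp5g2, 141 in Atp5h, 50 in Atp5k and 162 and 117 in Cox6a1. These 4 genes were detected in 11 to 14 cells.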

How the data were processed

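Per the labels, cDNA was made from the RNA of each picked cell with an oligo-dT primer, given a tail, put through 35 PCR cycles and labelled with biotin. Arrays were hybridised at more than 1 facility, not named per cell. The deposited values are intensities, 1 MAS5 signal per probe set on a linear scale, which the authors computed (release not given in the sources used here). Each array had a 2% trimmed mean of 500.0, the mark of scaling by a single factor. Detection calls were not used. Oligo-dT priming and strong amplification favour 3' ends and can miss scarce transcripts, so lack of detection does not show lack of expression.

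Of 45101 probe sets, 64 controls were left out. Names came from the array's annotation, in which 34945 probe sets had 1 symbol, 932 several and 9160 none. Gene numbers of 34741 matched a table of GRCm38.p6, used for names, pseudogenes and promoters. Signals were analysed with Python 3.11.15, numpy 2.4.6 and pandas 2.3.3. The code was tested on simulated data. Precision is limited by having 14 arrays, 1 per cell.

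All members may be named. Other pathway genes were named where found in all 14 cells or in none, besides Cycs, Cyct, Cyc1, Ndufa4, Higd1a and Higd2a. Nrf1, Esrra, Yy1, Sdha, Sdhb, Sdhc and Sdhd fall outside this rule. The members, lists, thresholds and cells to leave out were chosen with earlier results of these data known, so the counts are descriptions. Alternatives covered the threshold, the choice of probe set, scaling, cells, symbols, pseudocount and centring.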

Additional observations from a re-analysis of the deposited data

How the results depend on the processing

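Of 106 values under alternative settings, for 10 results, 89 stayed close to the value reported (counts within 1.5 times, other values within 1 SD) and 17 moved. For the median r between members that SD was 0.36, taken over pairs, so the rule could hardly mark a change in it. With signals centred per cell this median r was 0.32, against 0.17, and still counted as close. At a fixed signal of 1000, 10 members were in all 14 cells in place of 16, and the mean share per cell was 46.6% for complex IV and 87.4% for the ATP synthase. At 4 times the array median the share for complex IV was 63.9%, and the median for tissue-restricted isoforms was 4 cells in place of 2. With the probe sets of a gene averaged, the ATP synthase share was 86.1%, since silent probe sets enter the mean. The complex III share fell further under this setting, from 94.6% to 81.25%. It still counted as close only because its SD over cells was 13.6, against 4.69 without cell 5. The number of members in no cell, 1, was 0 at 4 times the median and after quantile normalization, 3 at 16 times the median and with averaged probe sets, 4 at a signal of 1000, and 2 without cells 5 and 13, without cells 3 and 6, and without cells 5, 11, 13 and 14. In the same 3 sets the median for widely used isoforms was 11, 11 and 9 cells, because fewer cells remained. Leaving out cell 5 alone, chosen after seeing the data, gave 22 members in all remaining cells a complex III share of 98.1% and a median r between members of 0.21, against 0.17. Symbols updated by gene number gave the same 42 members. No paired analysis was possible because all cells form 1 group.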

Other observations

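Probe sets of a gene could disagree. The 42 members had 82 single-gene probe sets, and 26 members had more than 1. Of the 40 probe sets not used, 12 were detected in no cell, and 10 of these belonged to 7 genes whose chosen probe set was in at least 7 cells: Atp5c1, Atp5g1, Atp5g2, Atp5j2, Cox5b, Cox8a and Uqcrq. A member with a single probe set, such as Cox6b2 or Cox4i2, has no such check. In the 26 unused probe sets found in at least 4 cells, 336 of 364 calls (92.3%) were those of the chosen one, and the median r with it was 0.93.

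Some pairs of probe sets read different levels of the same gene in the same cell. For Uqcrh in cell 5 the chosen probe set read 36267 and the other 5.04. Uqcr10 was in 13 cells by its chosen probe set and in 10 and 5 by the others. Atp5a1 was in all 14 cells by each of its 3 probe sets, yet 1 of them had r = 0.05 with the chosen one. In cell 5, Uqcrc2 was at background by both probe sets (2.04 and 2.85), and so was Cox6c (22.4 and 27.2). Of the chosen probe sets 12 carry a suffix of _s_at or _x_at, which marks possible binding of other transcripts, and 7 members (Atp5c1, Atp5k, Atp5l, Atp5pb, Cox5b, Cox7c and Uqcrh) have a pseudogene in the gene table, so their signals may be shared.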
